A study of Mus musculus with 12 samples.

Results

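Cryaa, which encodes alphaA-crystallin, was followed together with 6 heat shock genes, Cryab, Hspb1, Hspa1a, Hspa1b, Dnajb1 and Hsph1, in CD11c cells from inguinal lymph nodes of mice. Cryaa was selected on its values in the comparison of agonist with untreated tumor-draining nodes, where its rise with a CD40 agonist was the largest, for the gene and also per transcript, and the other 6 were chosen to stand beside it. The 7 genes are 7 of 52355 genes with summed transcripts, and all 7 are among the 23729 genes that passed the filter on low counts. In that comparison the 7 genes are therefore described and not tested. Cryaa had the largest log2 fold change, 3.35, and the next genes by the same ordering (called, mean log2 CPM of at least 2, the same direction in every pair) were Selenom at 2.79 and Mt2 at 2.64.

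RNA was sequenced from 12 libraries in 3 groups of 4. The TdLN_CD40 group holds tumor-draining nodes of mice with a subcutaneous KPC tumor that received a CD40 agonist. The TdLN group holds tumor-draining nodes of mice with the same kind of tumor and no agonist, and the Healthy_iLN group holds inguinal nodes of mice with no tumor and no agonist. KPC tumors model pancreatic carcinoma, and CD40 is a receptor of antigen-presenting cells through which an agonist activates them. The agonist's dose and timing, the strain and age of the mice, the way the CD11c cells were isolated and whether each library is 1 animal are not stated in the labels. The p-values therefore measure only the spread between these samples, part of which may be technical.

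Library totals were 32626784 to 56320661 estimated counts, with a median of 45423645.5. Each library title starts with a prefix that is shared by 1 library of each group, and the prefix gives the replicate number 1 to 4. The labels do not say what the prefix means. The 6 general dendritic cell markers summed to 17079 to 24212 CPM (counts per library, set to 1 common library size) in TdLN_CD40. In TdLN they summed to 24644 to 39988 CPM and in Healthy_iLN to 24170 to 39373 CPM. Most of each sum came from Cd74, H2-Aa and H2-Ab1, at means of 9904, 5076 and 3843 CPM in TdLN_CD40. Itgax, the gene of CD11c, was at 641 to 921 CPM in TdLN_CD40, 751 to 1130 in TdLN and 647 to 1090 in Healthy_iLN. Of the 6, 0 were called in TdLN_CD40 over TdLN, against 2.68% of all genes. With the prefix as a block 5 of 6 were called lower, against 13.3% called in either direction. Over Healthy_iLN 2 of 6 were called lower, and 5 of 6 with the block, against 6.28% and 20.1%. In these bulk libraries, fewer cells of a type and less RNA per cell cannot be told apart.

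Heat shock proteins are chaperones that hold or refold unfolded proteins. Small heat shock proteins such as Cryaa, Cryab and Hspb1 form large oligomers that bind unfolding proteins without using ATP. HSP70 proteins such as Hspa1a and Hspa1b refold them with ATP, J-domain proteins such as Dnajb1 deliver clients to HSP70 and stimulate its ATPase, and HSP110 proteins such as Hsph1 exchange the nucleotide. Many of these genes are induced together by heat shock factor 1 (Hsf1), which binds inverted repeats of the letters GAA, the heat shock element. Cryaa is known above all as a structural protein of the lens, where its transcription is driven by Pax6 and MAF factors.

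The promoter letters are shown because they separate Cryaa from the HSP70, HSP110 and Hspb1 genes of the set. RefSeq windows (GRCm38.p6) were held for 6 of the 7 genes, and both strands of the 250 bases before each RefSeq start site were searched. A heat shock element pair was searched as GAANNTTC or TTCNNGAA, and 12.8% of 32851 windows held at least 1. Hspb1 held 2, Hspa1a and Hspa1b 1 each and Hsph1 1, whereas the windows of Cryaa and Dnajb1 held neither form. The pair lies from -104 to -97 in Hspa1a and Hspa1b, and the lines below give these stretches with the pair in capitals, at chr17:34972242-34972271 for Hspa1a (minus strand), chr17:34959324-34959353 for Hspa1b (minus strand), chr5:135887791-135887840 for Hspb1 (plus strand) and chr5:149636351-149636380 for Hsph1 (minus strand).
Hspa1a: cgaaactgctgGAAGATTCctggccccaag
Hspa1b: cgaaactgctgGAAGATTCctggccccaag
Hspb1: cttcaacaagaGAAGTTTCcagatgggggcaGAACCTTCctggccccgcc
Hsph1: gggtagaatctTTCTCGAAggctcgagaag
The printed stretches of Hspa1a and Hspa1b are identical, and their 250 upstream bases differ at 3 positions. In the GENCODE M21 annotation used for the gene sums, the Hsph1 stretch overlaps 2 Hsph1 transcripts, so it is not upstream of every annotated start.

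The Cryaa window held 3 other searched motifs. The NF-kB motif (GGGAA, any 3 bases, CC), found in 4.94% of all windows, matched from -64 to -55. In the mouse the matched letters are known as the alphaA-CRYBP1 site of the lens promoter, bound by a zinc finger protein of the Hivep family. The letters TGCTGAC, part of the MAF recognition sequence and found in 3.81% of windows, matched from -108 to -102, and TATATA, found in 5.25%, matched from -29 to -24. The lines below show the NF-kB letters at chr17:31677857-31677886 and the MAF letters at chr17:31677812-31677841, both on the plus strand, with the motif in capitals.
Cryaa NF-kB letters: tagacattttGGGAAATCCCttaattcctc
Cryaa MAF letters: agcattccagcTGCTGACggtgcagcctct
In the GENCODE M21 annotation, the printed NF-kB stretch overlaps 2 Cryaa transcripts and the MAF stretch 1, so neither is upstream of every annotated start. Hspa1a and Hspa1b also held the NF-kB letters, from -133 to -124. These matches are descriptions of letters and say nothing of binding in these cells.

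Cryaa (ENSMUSG00000024041, chr17:31677807-31681733, GRCm38, plus strand) was at 16.0, 22.3, 16.5 and 26.0 CPM in TdLN_CD40 replicates 1 to 4. In TdLN replicates 1 to 4 it was at 2.23, 2.32, 1.27 and 2.11 CPM, and in Healthy_iLN replicates 1 to 4 at 1.86, 1.32, 1.39 and 2.17 CPM. All 4 TdLN_CD40 libraries stood above all 8 others. Means were 20.2 ± 4.79 CPM in TdLN_CD40, 1.98 ± 0.481 CPM in TdLN and 1.68 ± 0.402 CPM in Healthy_iLN (SD, n = 4 each). The log2 fold change was 3.35 (SE 0.26) for TdLN_CD40 over TdLN, 10.2-fold, and 3.58 (SE 0.26) for TdLN_CD40 over Healthy_iLN, 12-fold, both given with no test because Cryaa was chosen for this rise. Pair by pair, the log2 ratio of TdLN_CD40 to TdLN was 2.82, 3.24, 3.66 and 3.59 for prefixes 1 to 4.

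**Figure D1:**
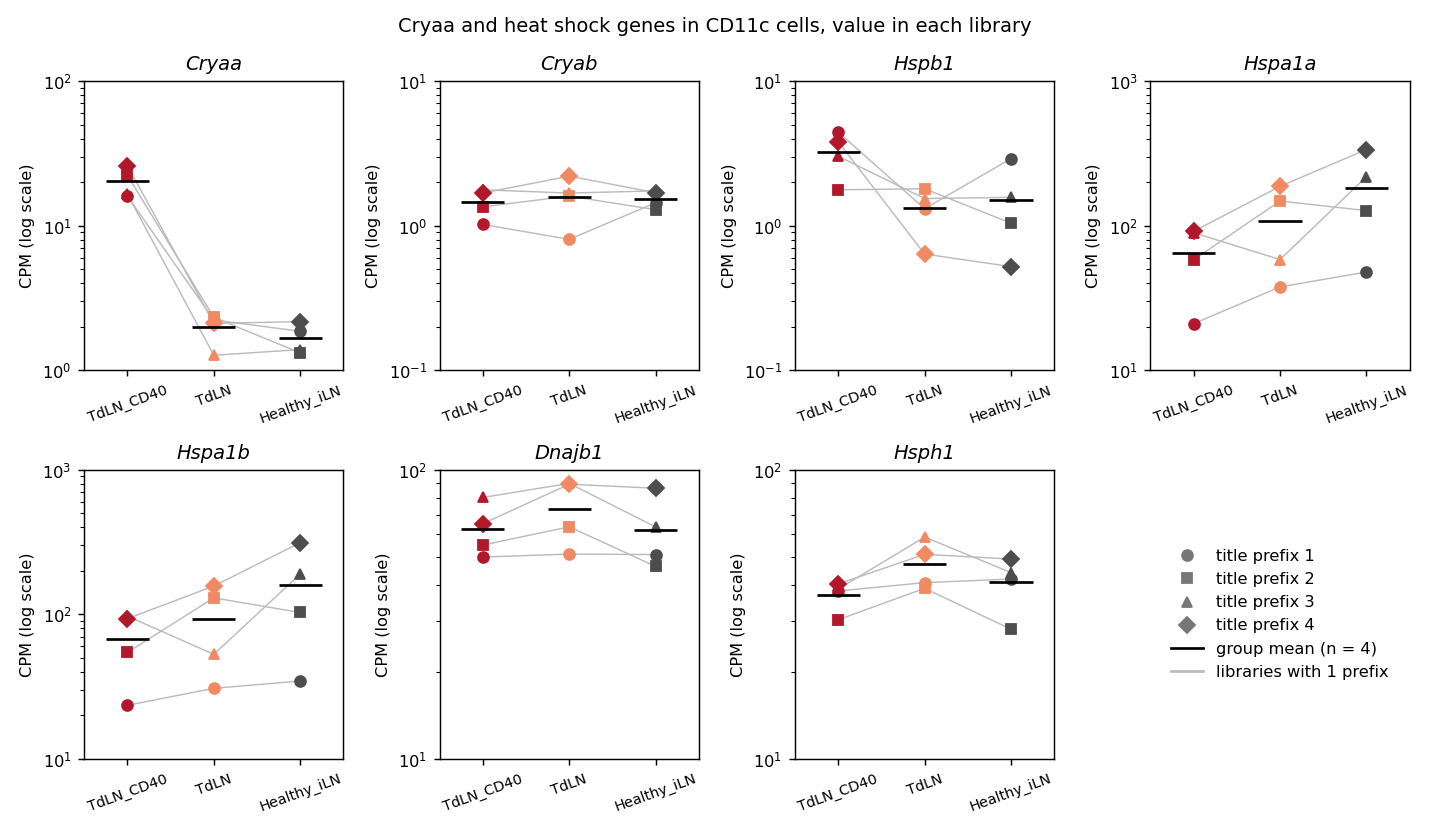
Level of each of the 7 genes in CPM (log axis) in every library, by group, with the marker giving the title prefix, grey lines joining libraries of 1 prefix and black bars the group means (n = 4). The 4 TdLN_CD40 libraries of Cryaa sit between 16.0 and 26.0 CPM, above all others, while the groups of the other 6 genes overlap and Hspa1a runs from low in prefix 1 to high in prefix 4.

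In depth, these values rest on 691 to 1189 estimated counts in TdLN_CD40, 66 to 107 in TdLN and 47 to 104 in Healthy_iLN. Per length, Cryaa averaged 15.5 TPM (abundance scaled for transcript length) in TdLN_CD40, a level above that of 73.8% of tested genes. It averaged 1.67 TPM in TdLN, above 44.4% of genes, and 1.38 TPM in Healthy_iLN, above 40.0%. In the order of levels TdLN and Healthy_iLN were neighbours whose ranges overlapped. TdLN over Healthy_iLN, a comparison that did not choose Cryaa, gave a log2 fold change of 0.23 (SE 0.25, adjusted p = 0.823, quasi-likelihood test of edgeR, Benjamini-Hochberg adjusted), with 2 of 4 pairs higher.

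Most of the Cryaa signal came from the transcript of ordinary alphaA-crystallin. Cryaa-206, with 3 exons and 519 coding bases, averaged 12.1 ± 3.74 TPM in TdLN_CD40, 1.06 ± 0.385 TPM in TdLN and 1.18 ± 0.308 TPM in Healthy_iLN (SD, n = 4 each), which was 78.1%, 63.3% and 85.0% of the gene's TPM in these groups. Cryaa-201 has a 4th exon of 69 bases, which adds 23 residues and makes the rodent form known as alphaA-ins-crystallin. It was at 1.25, 1.53, 0.996 and 4.46 TPM in TdLN_CD40 replicates 1 to 4 and at 0.00, 0.287, 0.323 and 0.115 TPM in TdLN replicates 1 to 4. In Healthy_iLN it was listed at 0 in replicates 1, 2 and 4 and at 0.0619 TPM in replicate 3. Its share of the gene was 22.1% in TdLN_CD40 replicate 4 and 7.82% to 11.3% in the other 3 TdLN_CD40 libraries. In TdLN libraries, where the gene was low, the share ran from 0.00% to 33.7%, the highest in replicate 3 on 23 estimated counts. The 3 transcripts with a retained intron together held less in every TdLN_CD40 library than Cryaa-206, but in TdLN replicate 4 Cryaa-205 alone held 50.0% of the gene's TPM, on 33 estimated counts. Division of reads among transcripts of a gene is itself an estimate whose error the files do not give.

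Within the coding sequence, the insert is the feature that tells Cryaa-201 from Cryaa-206. It lies at chr17:31678449-31678517 (GRCm38, plus strand, coding), and the line below gives it in capitals with 15 coding bases of the neighbouring exons on either side.
Cryaa-201 insert: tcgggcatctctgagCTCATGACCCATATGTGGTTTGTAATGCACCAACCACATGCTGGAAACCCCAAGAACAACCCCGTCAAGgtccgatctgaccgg

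**Figure D2:**
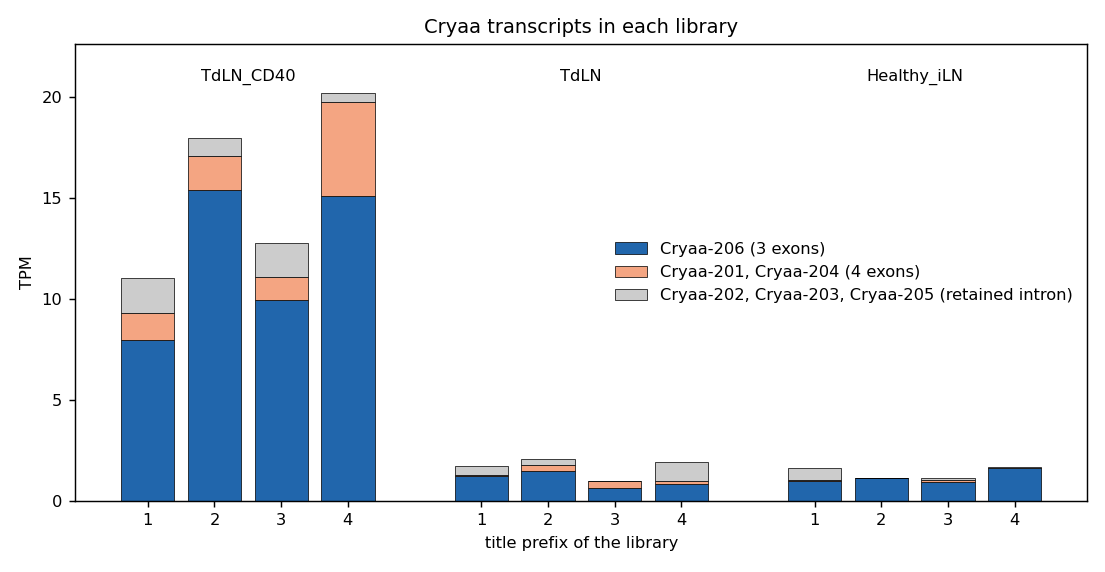
TPM of Cryaa transcripts in each library, stacked, by group and title prefix; blue is Cryaa-206 (3 exons), orange the 4-exon transcripts and grey those with a retained intron. Cryaa-206 makes up most of each TdLN_CD40 bar, and the 4-exon TPM is highest in TdLN_CD40 replicate 4.

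None of the tested genes around Cryaa was called with the agonist. Of 19 other annotated genes within 200 kb, 6 were tested (Wdr4, Ndufv3, Gm38099, Pknox1, U2af1 and Sik1). With TdLN_CD40 over TdLN their log2 fold changes ran from -0.07 (Wdr4) to 0.34 (Sik1, a stress-regulated kinase, adjusted p = 0.508), and 0 of 6 were called by edgeR's quasi-likelihood test, with or without the prefix as a block, by DESeq2 or by limma voom, and 0 had an unadjusted p under 0.05. Of all genes 2.68% were called in this comparison and 13.3% with the block, so 0 of 6 is near the background. Over Healthy_iLN 0 of 6 were called without the block by edgeR, DESeq2 or limma voom, 2 had an unadjusted p under 0.05, and Ndufv3, a subunit of mitochondrial complex I, was called with the block (log2 fold change 0.36, adjusted p = 0.276 without and 0.00828 with the block), against 6.28% of all genes called without and 20.1% with the block. An antisense gene, AC090881.2, covers Cryaa on the opposite strand and was not analysed here. The libraries were made with a kit that keeps the strand, but whether the quantification used it is not stated, so reads of both strands may be mixed in the Cryaa value.

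The genes with patterns most like Cryaa over the 12 libraries were Selenom, Traf1, Il2ra, H2-T22 and Bcl2l14, with Pearson correlations of log2 CPM from 0.96 to 0.98 among 11593 genes compared. The 12 points share the contrast of 4 agonist libraries with 8 others, so the correlations follow that contrast. Selenom, a selenoprotein of the endoplasmic reticulum, averaged 57.5 ± 17.2 CPM in TdLN_CD40, 8.35 ± 2.12 CPM in TdLN and 8.13 ± 0.654 CPM in Healthy_iLN (SD, n = 4 each). Traf1, an adaptor of tumor necrosis factor receptors, averaged 644 ± 45.5, 399 ± 26.2 and 378 ± 35.1 CPM in the same groups. Il2ra, the alpha chain of the interleukin-2 receptor, averaged 32.1 ± 3.80, 12.6 ± 0.487 and 10.8 ± 1.09 CPM.

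Several lists of cell type markers differed along with Cryaa, some higher and some lower in TdLN_CD40. The 6 markers of mature migratory dendritic cells summed to 4476 to 7289 CPM in TdLN_CD40, 1900 to 3309 CPM in TdLN and 2148 to 3407 CPM in Healthy_iLN, and 3 of 6 (Ccr7, Ccl22 and Cd200) were called higher in TdLN_CD40 over TdLN, against 2.68% of all genes called in that comparison (6 of 6 with the prefix as a block, against 13.3%). The 12 macrophage markers summed to 1354 to 2017 CPM, 753 to 1265 CPM and 774 to 1053 CPM in those groups, and of 11 tested 4 were called higher (C1qc, Marco, Siglec1 and Cd5l). Vsig4, a marker of tissue macrophages, was listed at 0 in 9 of 12 libraries. Adgre1 had a log2 fold change of -0.62 (adjusted p = 0.068, 0.0024 with the block), and Cd68 one of -0.02 (adjusted p = 0.995). The 6 markers of type 2 dendritic cells summed to 986 to 1543 CPM in TdLN_CD40, 1260 to 1874 CPM in TdLN and 1010 to 1660 CPM in Healthy_iLN, and 3 of 6 were called lower over TdLN (Cd209a at -2.67, Mgl2 at -1.52 and Clec10a at -1.22). Type 1 dendritic cell markers summed to 758 to 1333 CPM in TdLN_CD40, 933 to 1933 CPM in TdLN and 1172 to 1968 CPM in Healthy_iLN. Of these, 1 of 6 was called by edgeR over TdLN, Clec9a at -0.80 (adjusted p = 0.0335). With the block 4 type 1 markers were called lower and 1 higher (Batf3), against 13.3% of all genes. In the same fit 4 of 6 type 2 markers were called lower. Of the macrophage markers, 4 were called higher and 1 lower (Adgre1) in it. Monocyte and natural killer cell markers went both ways, with Ccr2 at -1.46 and Lyz2 at 0.69, and Klrd1 at -1.14 and Gzma at 2.15, as the called genes of 6 each. The part of these cell types in the Cryaa values was not tested.

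Cryab, the alphaB-crystallin that pairs with alphaA-crystallin in the lens and is also made in muscle, heart and brain, overlapped across all 3 groups. It was at 1.02, 1.35, 1.77 and 1.68 CPM in TdLN_CD40 replicates 1 to 4, 0.804, 1.6, 1.68 and 2.20 CPM in TdLN replicates 1 to 4, and 1.44, 1.29, 1.74 and 1.69 CPM in Healthy_iLN replicates 1 to 4. The ranges overlapped in every pair of groups, on 35 to 97 estimated counts per library. TdLN_CD40 over TdLN gave a log2 fold change of -0.11 (SE 0.32, no test), against 3.35 for Cryaa. TdLN_CD40 over Healthy_iLN gave -0.08 (SE 0.32, adjusted p = 0.941), and TdLN over Healthy_iLN gave 0.03 (SE 0.32, adjusted p = 0.983).

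Hspb1 (HSP25 in the mouse), a small heat shock protein that also binds actin filaments, was at 4.43, 1.77, 3.02 and 3.80 CPM in TdLN_CD40 replicates 1 to 4. TdLN replicates 1 to 4 had 1.31, 1.80, 1.54 and 0.636 CPM, and Healthy_iLN replicates 1 to 4 had 2.91, 1.04, 1.57 and 0.521 CPM. The Hspb1 values rest on 76 to 191 estimated counts in TdLN_CD40, 28 to 83 in TdLN and 25 to 119 in Healthy_iLN. TdLN_CD40 replicate 2 lay within the range of both other groups, and the other 3 TdLN_CD40 libraries lay above every TdLN and Healthy_iLN library. The log2 fold change of TdLN_CD40 over TdLN was 1.30 (SE 0.48, no test). TdLN_CD40 over Healthy_iLN gave 1.11 (SE 0.47), higher in 4 of 4 pairs, and was not called (adjusted p = 0.23, and 0.0699 when the prefix was a block).

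Hspa1a and Hspa1b, the stress-inducible HSP70 genes, had their lowest means in TdLN_CD40 and their highest in Healthy_iLN, with wide spread. Hspa1a was at 21, 58.1, 89.3 and 91.4 CPM in TdLN_CD40 replicates 1 to 4, 37.7, 148, 58.3 and 187 CPM in TdLN replicates 1 to 4, and 47.8, 127, 218 and 336 CPM in Healthy_iLN replicates 1 to 4. Hspa1b followed at 23.5, 54.6, 97.2 and 93.4 CPM in TdLN_CD40, 30.8, 130, 52.9 and 157 CPM in TdLN, and 34.6, 103, 190 and 313 CPM in Healthy_iLN, in the same order of replicates. The groups overlapped for both genes. Within each prefix, however, the TdLN_CD40 library was below the Healthy_iLN library in 4 of 4 pairs for both genes. For TdLN_CD40 over Healthy_iLN, Hspa1a had a log2 fold change of -1.49 (SE 0.68) and was not called without the block (adjusted p = 0.296). In the blocked fit it was called, at -1.38 (adjusted p = 0.0375). Hspa1b had -1.25 (SE 0.71) and was called in neither fit (adjusted p = 0.437, and 0.112 with the block).

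The coding sequences of Hspa1a and Hspa1b match at 1915 of 1926 aligned positions (99.4%), so the division of reads between the genes is uncertain and their sum is the safer value. The sum was at 44.5, 113, 186 and 185 CPM in TdLN_CD40 replicates 1 to 4, 68.5, 279, 111 and 345 CPM in TdLN replicates 1 to 4, and 82.5, 230, 409 and 649 CPM in Healthy_iLN replicates 1 to 4. For the sum, TdLN_CD40 over Healthy_iLN gave a log2 fold change of -1.37 (SE 0.69, adjusted p = 0.356) and, with the block, -1.22 (adjusted p = 0.0621), so the call of Hspa1a under the block was not shared by the summed pair. TdLN over Healthy_iLN gave -0.77 for the sum (SE 0.68, adjusted p = 0.804). TdLN_CD40 over TdLN gave -0.73 for Hspa1a (SE 0.67) and -0.47 for Hspa1b (SE 0.70), with no test.

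Among the genes most like Hspa1a over the 12 libraries were Hspa1b, at a Pearson correlation of 0.99, and Tbxa2r, Pdlim2 and Tmem163, at 0.92 to 0.95, out of the same 11593 genes. These points share the prefixes as well as the groups. Early response genes, which rise when tissue is taken apart, summed to 1639 to 1893 CPM in TdLN_CD40, 1640 to 2015 CPM in TdLN and 1881 to 2175 CPM in Healthy_iLN, with 0 of 17 higher and 4 lower (Fos, Atf3, Btg2 and Klf4) in TdLN_CD40 over Healthy_iLN, where 6.28% of all genes were called in either direction. With the block 1 was called higher (Klf6) and 7 lower (also Klf2, Zfp36 and Nr4a1), against 20.1%. Their correlations with Hspa1a over the 12 libraries ran from -0.77 (Dusp1) to 0.86 (Klf2), with a median of 0.39. Their part in the Hspa1a values was not tested.

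Dnajb1, the HSP40 partner of the inducible HSP70s, was at 49.9, 54.9, 80.2 and 65.1 CPM in TdLN_CD40 replicates 1 to 4, 51.1, 63.5, 89.7 and 89.1 CPM in TdLN replicates 1 to 4, and 50.9, 46.3, 63.4 and 86.3 CPM in Healthy_iLN replicates 1 to 4. The groups overlapped throughout, although each TdLN_CD40 library was below the TdLN library of its prefix. The log2 fold change was -0.23 for TdLN_CD40 over TdLN (SE 0.23, no test), 0.02 for TdLN_CD40 over Healthy_iLN (SE 0.23, adjusted p = 0.981) and 0.25 for TdLN over Healthy_iLN (SE 0.23, adjusted p = 0.806). The longer transcript, Dnajb1-201, held 75.8% of the gene's TPM in TdLN_CD40, 63.1% in TdLN and 62.1% in Healthy_iLN.

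Hsph1, an HSP110 protein, was at 38.1, 30.3, 38.7 and 40.3 CPM in TdLN_CD40 replicates 1 to 4, 40.7, 38.9, 58.5 and 51.0 CPM in TdLN replicates 1 to 4, and 41.9, 28.1, 44.1 and 49.1 CPM in Healthy_iLN replicates 1 to 4. The TdLN_CD40 libraries were below their TdLN partners in 4 of 4 pairs, with ranges that overlapped. The log2 fold change of counts was -0.36 for TdLN_CD40 over TdLN (SE 0.18, no test), -0.15 for TdLN_CD40 over Healthy_iLN (SE 0.18, adjusted p = 0.773) and 0.21 for TdLN over Healthy_iLN (SE 0.18, adjusted p = 0.8).

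The level of Hsph1 differed by unit. Per length it averaged 22.0 ± 2.47 TPM in TdLN_CD40, 39.1 ± 9.48 TPM in TdLN and 53.9 ± 14.8 TPM in Healthy_iLN (SD, n = 4 each), and a limma fit of log2(TPM + 0.5) called TdLN_CD40 below Healthy_iLN (log2 fold change -1.24, adjusted p = 0.0123). A noncoding transcript of 254 bases, Hsph1-207, differed in the same direction. It averaged 5.77 ± 1.72, 16.4 ± 5.40 and 34.5 ± 10.8 TPM in these groups. Hsph1-207 had 6 to 11, 13 to 30 and 29 to 79 estimated counts per library in them. Its TPM ran from 4.28 to 7.56 over the TdLN_CD40 libraries, 8.43 to 20.5 over the TdLN libraries and 22.6 to 47.5 over the Healthy_iLN libraries. Without Hsph1-207 the other transcripts summed to 16.3 ± 2.55 TPM in TdLN_CD40, 22.8 ± 4.38 TPM in TdLN and 19.4 ± 4.56 TPM in Healthy_iLN. It was singled out after its values were seen and was not tested.

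**Figure D3:**
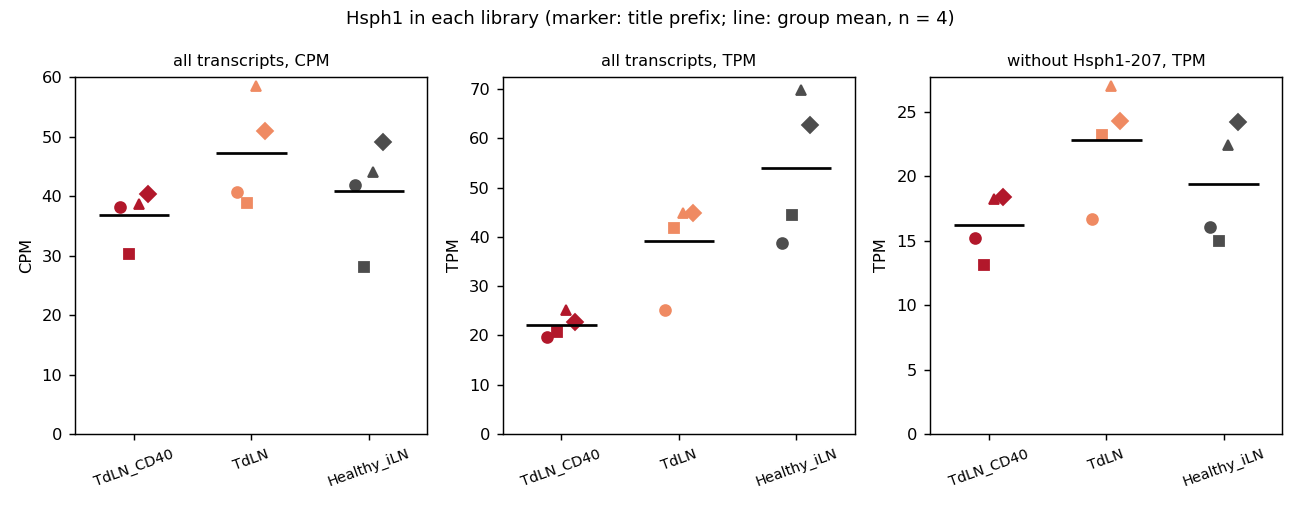
Hsph1 in each library as CPM of all transcripts (left), TPM of all transcripts (middle) and TPM without the 254-base transcript Hsph1-207 (right); markers give the title prefix and lines the group means (n = 4). The difference between TdLN_CD40 and Healthy_iLN in the middle plot, 22.0 against 53.9 TPM, is 16.3 against 19.4 TPM in the right plot.

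Read together over the comparisons that did not choose them, the 7 genes gave few calls. In TdLN over Healthy_iLN 0 of 7 were called by edgeR's quasi-likelihood test, against 0.198% of all genes (0 of 7 with the prefix as a block, against 6.30%); 0 had an unadjusted p under 0.05, and DESeq2 and limma voom called 0. In TdLN_CD40 over Healthy_iLN, leaving out Cryaa, 0 of 6 were called, against 6.28% of all genes; 1 (Hspb1) had an unadjusted p under 0.05, and DESeq2 and limma voom called 0. With the block 1 of 6 (Hspa1a) was called, against 20.1% of all genes. In TdLN_CD40 over TdLN the libraries of Cryaa alone did not overlap between the groups, 1 of 7, a count the choice of Cryaa fixes, against 8.26% of all genes. The median log2 fold change of all tested genes was 0.02, -0.02 and -0.03 for TdLN_CD40 over TdLN, TdLN over Healthy_iLN and TdLN_CD40 over Healthy_iLN.

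**Figure D4:**
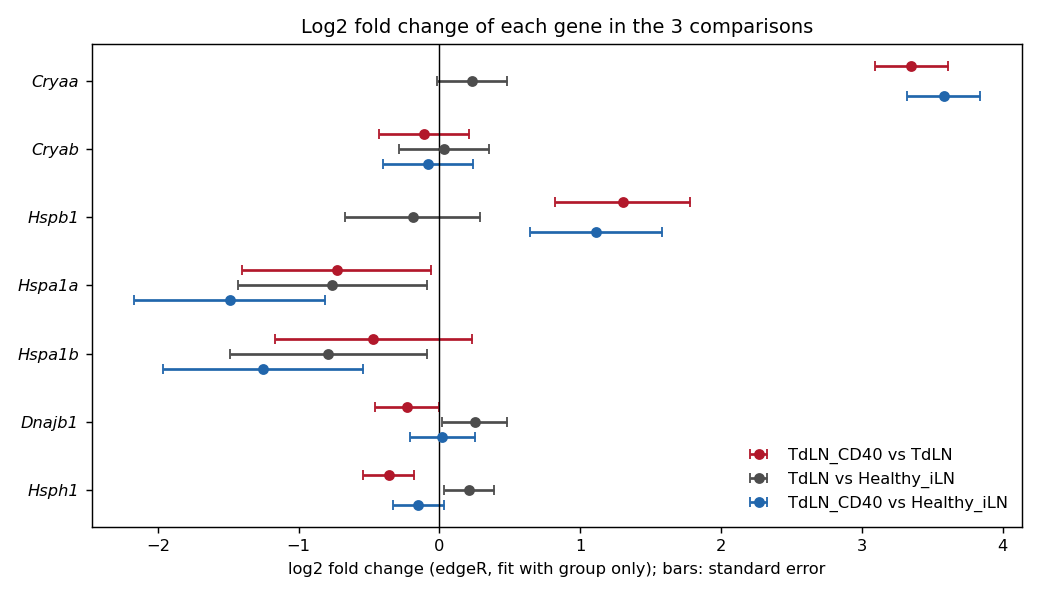
Log2 fold change (points) with its standard error (bars) of each gene in the 3 comparisons, from the edgeR fit with group only. Cryaa is at 3.35 and 3.58 in the comparisons that include the agonist and at 0.23 between TdLN and Healthy_iLN, whereas Hspa1a and Hspa1b lie below 0 in all 3.

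For 5 of the 7 genes the title prefix held more of the variation than the group. Prefix means over the 3 groups for prefixes 1 to 4 were 35.5, 111, 122 and 205 CPM for Hspa1a, and 50.6, 54.9, 77.8 and 80.2 CPM for Dnajb1. Of the variance of log2 CPM over the 12 libraries, the prefix held 63.0% and the group 25.5% for Hspa1a, 70.2% and 15.7% for Hspa1b, 73.7% and 10.8% for Dnajb1, 59.9% and 26.1% for Hsph1, and 69.5% and 1.21% for Cryab. For Hspb1 the prefix held 24.8% and the group 45.5%. For Cryaa the prefix held 2.03% and the group 96.5%. Cryaa was chosen for its rise with the agonist, so a large group share follows from that choice. In a joint test of the prefixes beside the group, 4 of 7 genes were called, Hspa1a (adjusted p = 0.0179), Hspa1b (0.0238), Dnajb1 (0.00248) and Hsph1 (0.00569), by edgeR's quasi-likelihood test. Cryaa (0.0756), Cryab (0.0909) and Hspb1 (0.295) were not called. As 45.1% of all genes were called for the prefix, 4 of 7 is near the background.

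The correlations among the 7 genes over the 12 libraries, which share groups and prefixes, are given as a description. Hspa1a and Hspa1b stood at 0.99, Dnajb1 and Hsph1 at 0.76, Cryab and Dnajb1 at 0.75 and Cryab and Hspa1a at 0.70. Cryaa stood at 0.63 with Hspb1 and between -0.39 and -0.09 with the other 5. Hspb1 stood at -0.67 with Hspa1a, -0.61 with Hspa1b and -0.40 with Dnajb1.

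Most other chaperones of these families, a few of them in mitochondria or the endoplasmic reticulum, were not called with the agonist. In TdLN_CD40 over TdLN, where 2.68% of all genes were called, edgeR called 0 of 3 other small heat shock proteins, 1 of 9 other HSP70 and HSP110 genes, 1 of 16 other J-domain genes, 0 of 18 HSP90 chaperones and co-chaperones and 0 of 10 chaperonins. The median log2 fold changes of these lists were 0.10, -0.10, -0.08, -0.01 and -0.07. Among the lists with a count of 0, an unadjusted p under 0.05 was seen for 0 small heat shock proteins, 1 HSP90 gene and 0 chaperonins, and DESeq2 and limma voom called 0 in each. With the block, where 13.3% of all genes were called, the counts for the 5 lists were 0 of 3, 1 of 9, 3 of 16 (Dnajb2, with Dnajc3 and Dnajb14 lower), 2 of 18 (Bag3 and Cdc37, both higher) and 0 of 10. Over Healthy_iLN with the block, the counts were 0 of 3, 1 of 9, 5 of 16, 5 of 18 and 3 of 10. There 20.1% of all genes were called. The HSP90 and chaperonin genes called there were all higher, and of the J-domain genes 3 were higher and 2 lower. Hspb6, the small heat shock protein of smooth muscle, was at 5.05 CPM in TdLN_CD40, 4.70 CPM in TdLN and 4.85 CPM in Healthy_iLN.

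The called genes were Hspa12a, Dnajb2 and, over Healthy_iLN, also Bag3. Hspa12a, an atypical HSP70, averaged 10.1 ± 4.22 CPM in TdLN_CD40 and 4.29 ± 1.22 CPM in TdLN (log2 fold change 1.24, SE 0.31, adjusted p = 0.0456), higher in 4 of 4 pairs. Its call was lost when any 1 of the 12 libraries other than TdLN_CD40 replicate 1 was left out (adjusted p = 0.0537 to 0.169), and with limma voom (0.0703), the size factors of DESeq2 (0.0612) or the 8 libraries alone (0.0756). Dnajb2, a J-domain protein that guides ubiquitinated clients to the proteasome, averaged 28.1 ± 1.62 CPM in TdLN_CD40 and 16.9 ± 1.6 CPM in TdLN (log2 fold change 0.74, SE 0.14, adjusted p = 0.0104), and 17 ± 3.06 CPM in Healthy_iLN (0.72, adjusted p = 0.0055 against it). Bag3, a co-chaperone that links HSP70 and small heat shock proteins to autophagy, averaged 25.6 ± 4.77 CPM in TdLN_CD40, 17.5 ± 3.99 CPM in TdLN and 15.3 ± 2.14 CPM in Healthy_iLN. Bag3 was called over Healthy_iLN (log2 fold change 0.75, adjusted p = 0.0232), and over TdLN with the block only (0.55, adjusted p = 0.146 without and 0.000841 with it). The Healthy_iLN call of Bag3 was lost without TdLN_CD40 replicate 3 or 4 or Healthy_iLN replicate 1, 2 or 3 (adjusted p = 0.0724 to 0.0968). On the log2(TPM + 0.5) and log2(TPM + 0.1) scales, limma's adjusted p was 0.15 to 0.284 for these 3 genes in each comparison in which they were called.

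**Figure D5:**
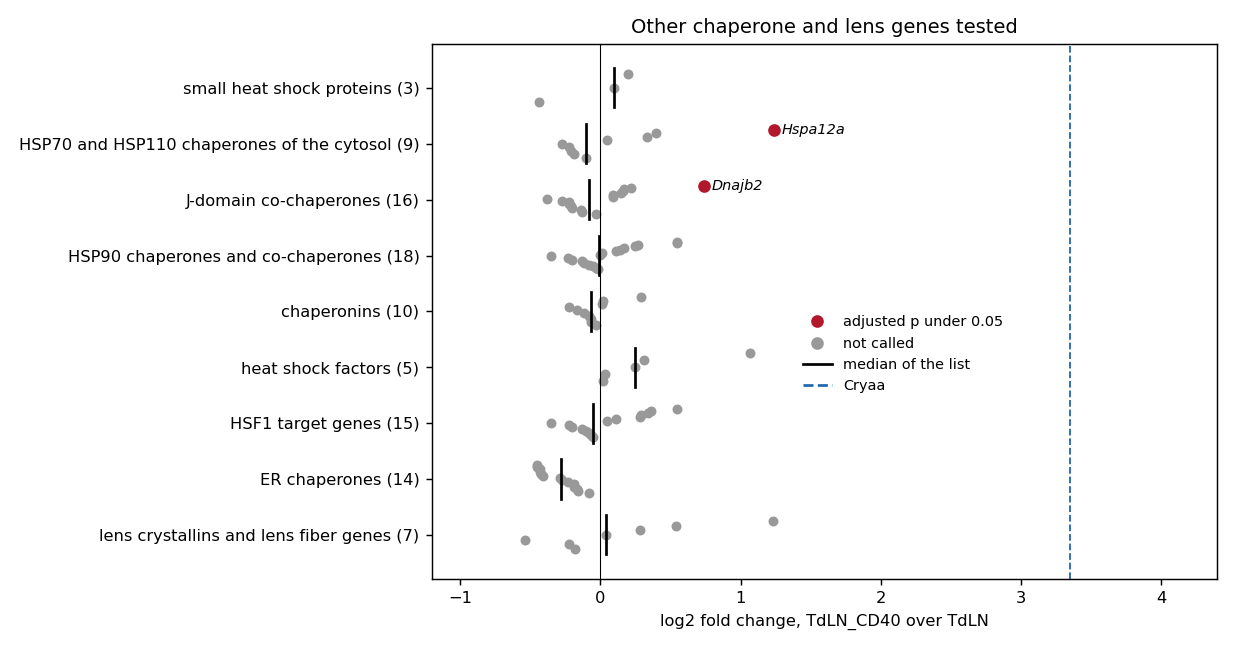
Log2 fold change of TdLN_CD40 over TdLN for the tested genes of 9 lists without the 7 genes, 1 point a gene, with the number of genes in brackets; red points passed an adjusted p under 0.05, black bars are list medians and the dashed line is Cryaa at 3.35. Hspa12a (1.24) and Dnajb2 (0.74) were called, and the list medians lie between -0.28 and 0.25.

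The list of heat shock factors held 5 genes, of which Hsbp1 encodes a protein that binds the factors. In TdLN_CD40 over TdLN 0 of 5 were called by edgeR, DESeq2 or limma voom, where edgeR called 2.68% of all genes. Among the 5, 1 (Hsf4) had an unadjusted p under 0.05, and 0 were called with the block, against 13.3%. Over Healthy_iLN edgeR called 0 of 5 without the block and 1 with it, against 6.28% and 20.1%. That gene was Hsbp1 (log2 fold change 0.38, adjusted p = 0.11 without and 0.00447 with the block). Hsf1, the main activator of the heat shock response, averaged 25.6 CPM in TdLN_CD40, 25.3 CPM in TdLN and 24.8 CPM in Healthy_iLN (log2 fold change 0.02 over TdLN, adjusted p = 0.992). Hsf4, the factor known for its role in the lens, was low, at 1.07 ± 0.298 CPM in TdLN_CD40 and 0.510 ± 0.184 CPM in TdLN (log2 fold change 1.07, adjusted p = 0.261). Of 15 other targets of Hsf1, 0 were called over TdLN by edgeR, DESeq2 or limma voom, with a median log2 fold change of -0.05. Of these, 2 had an unadjusted p under 0.05, and 2 were called with the block, against 13.3% of all genes. Over Healthy_iLN 1 of 15 was called by edgeR (Bag3), against 6.28% of all genes, with a median of 0.24. With the block 6 of 15 were called there, all higher, against 20.1%.

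Chaperones of the endoplasmic reticulum, which answer to the unfolded protein response and not to Hsf1, lay on the lower side. In TdLN_CD40 over TdLN, 0 of 14 were called by edgeR, DESeq2 or limma voom, 5 had an unadjusted p under 0.05, and the median log2 fold change was -0.28. With the prefix as a block 7 of 14 were called lower (Hspa5, Hsp90b1, Hyou1, Pdia4, Pdia6, Sdf2l1 and Creld2), against 6.58% of all genes called lower in that fit. Hspa5 (BiP), the HSP70 of this compartment, averaged 647 ± 84.7 CPM in TdLN_CD40 and 873 ± 182 CPM in TdLN (log2 fold change -0.43, adjusted p = 0.303, and 0.00706 with the block).

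Without the block, edgeR called none of the other lens genes tested, and Cryba4 and Bfsp2 were called in other fits. Of 20 other crystallins and lens fiber genes 13 were too low to test, and Crygb, Crygc, Crygd, Cryge, Crygf, Crygs and Gja3 were at 0 counts in all 12 libraries. Of the 7 tested, 0 were called over TdLN by edgeR, DESeq2 or limma voom, 2 had an unadjusted p under 0.05, and 1 was called with the block, against 2.68% of all genes without and 13.3% with it. That gene was Cryba4, a beta-crystallin at 0.661 ± 0.238 CPM in TdLN_CD40, 0.280 ± 0.0391 CPM in TdLN and 0.251 ± 0.0531 CPM in Healthy_iLN. Its log2 fold change was 1.23 over TdLN (adjusted p = 0.131, and 0.0467 with the block) and 1.39 over Healthy_iLN (adjusted p = 0.0513, 0.02 with the block and 0.0284 by DESeq2), on at most 40 estimated counts in a library. Over Healthy_iLN edgeR called 0 of 7 without the block and 2 with it, both higher, against 6.28% and 20.1% of all genes. Beside Cryba4 this was Bfsp2, a lens fiber gene, at 2.83 ± 0.524 CPM in TdLN_CD40 and 1.92 ± 0.287 CPM in Healthy_iLN. Its log2 fold change over Healthy_iLN was 0.56 (adjusted p = 0.236, and 0.0423 with the block).

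Among known lens regulators of Cryaa, Pax6 averaged 0.766 CPM in TdLN_CD40 and 0.923 CPM in TdLN (adjusted p = 0.901, edgeR's quasi-likelihood test). Maf averaged 23.6 CPM in TdLN_CD40 and 18.8 CPM in TdLN (adjusted p = 0.495).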

How the data were processed

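The authors deposited estimated counts and TPM values per transcript, and the submitters' processing notes name Salmon and the mouse build mm10; the deposited tables are named for sailfish, a related program. The counts were not normalized, and TPM were scaled by the authors to 1 total per library and for transcript length. No version, annotation or filter is stated. Per the labels' protocols, libraries came from a directional NEBNext kit.

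Of 132374 transcripts, 131974 matched GENCODE M21 (GRCm38) and were summed to 52355 genes; the 400 left out held 0.116% to 0.147% of counts. Sums were rounded. Genes were tested with edgeR 4.0.16 (R 4.3.3): TMM scaling, filterByExpr with a minimum count of 10, robust quasi-likelihood F test, all 12 libraries, group as the only term (9 residual degrees of freedom), Benjamini-Hochberg adjustment over 23729 genes and a call under 0.05. CPM use the TMM-scaled library sizes, and log2 CPM a prior count of 2. The test was checked on simulated counts with the same dispersion for every gene and no prefix effects. That check therefore does not cover the prefix effects of these libraries.

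Same-prefix libraries deviated together from their group means (correlations of 0.2 to 0.47 in 12 pairs, against a median of -0.24 in 36 others), so the prefix, taken from the titles, was used to pair them, as a block, in a further fit (6 residual degrees of freedom, biological coefficient of variation 20.7% against 33.9% without it). The joint test of the prefixes came from that fit. The alternatives were DESeq2 1.42.0, its size factors, limma 3.58.1 voom, limma on log2(TPM + 0.5) or log2(TPM + 0.1), no filter, the 8 libraries of a comparison alone, Hspa1a and Hspa1b summed, and leaving out each library.

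The 7 genes and the lists were chosen with earlier results of these data known. Beside the 7 genes, genes are named where called, up to 3 by smallest p per list and comparison, or else the 1 with the smallest p, with genes from the 5 most like Cryaa and Hspa1a and the neighbours of Cryaa; some genes that the rule names are not reported here. Outside that rule, Hspb6, Hsf1, Pax6, Maf, Bfsp2, the single cell type markers, early response genes and ER chaperones were named after their values were seen. So were other chaperones called with the block, lens genes at 0, Hsph1-207 and the other transcripts. Promoter motifs were exact matches. Intervals for depth were not computed, since estimated counts are not independent molecules.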

Additional observations from a re-analysis of the deposited data

How the results depend on the processing

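The 7 genes were refitted under each alternative. With the agonist over TdLN, Cryaa kept a log2 fold change of 2.87 to 3.45 under 20 alternatives, and 3.18 to 3.45 without any 1 library. Counts of genes called moved more. For TdLN_CD40 over TdLN 635 genes were called, with 3161 under the replicate block, 1177 by DESeq2, 252 and 241 on log2(TPM + 0.5) and log2(TPM + 0.1), and 323 to 547 without 1 library. For TdLN over Healthy_iLN 47 were called, with 1495 under the block, 75 with no filter, 395 by DESeq2, 1 by limma voom, 2 and 2 on the TPM scales, 25 in the 8 libraries alone and 0 to 101 without 1 library. For TdLN_CD40 over Healthy_iLN 1490 were called, with 4781 under the block, 757 and 742 on the TPM scales and 829 to 1535 without 1 library. The prefix test called 10705 genes, and 8584 to 11107 without 1 library. Among the 7 genes the block added the call of Hspa1a over Healthy_iLN and changed no other call. Directions that reversed were of values between -0.19 and 0.21 that were not called or not tested. In TdLN_CD40 over TdLN it was Cryab, at -0.11, without TdLN_CD40 replicate 1 or TdLN replicate 4 (-0.33 to 0.08 without 1 library). In TdLN over Healthy_iLN they were Cryab under the block (-0.03), voom (-0.06) and without 1 library (-0.18 to 0.23), Hspb1 without TdLN replicate 4 (0.05) or Healthy_iLN replicate 1 (0.34; -0.47 to 0.34 without 1 library), Hsph1 on the TPM scales (-0.45 and -0.46), and Crygn, a lens gene at 0.21, on the TPM scales (-0.53 and -0.56) and without 1 library (-0.02 to 0.40). In TdLN_CD40 over Healthy_iLN they were Cryab on the TPM scales (0.03 and 0.02) and without 1 library (-0.19 to 0.05), and Dnajb1 with no filter (-0.01), on the TPM scales (-0.06 each), in the 8 libraries alone (0.00) and without 1 library (-0.12 to 0.23). For none of these genes, Hsph1 included, was the cause of the reversal tested. Depth limits Cryab, Hspb1, Cryba4 and the Cryaa transcripts outside the agonist group, which rest on few counts.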

Other observations

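The division between the near-identical HSP70 genes differed slightly by group, chosen after its values were seen and not tested. Hspa1a held 47.1% to 51.5% of the summed Hspa1a and Hspa1b CPM in the 4 TdLN_CD40 libraries, 52.4% to 55.0% in the 4 TdLN libraries and 51.8% to 58.0% in the 4 Healthy_iLN libraries. The TdLN_CD40 range lay below both others. How far this reflects the assignment of shared reads was not tested.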
